A study of Mus musculus with 2 samples.

Results

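The Fc receptor genes of macrophages in the colon were compared between mice given a chemical that is widely used to induce colitis and mice on plain water. The 7 genes were fixed by name: Fcgr1, Fcgr2b, Fcgr3, Fcgr4, Fcer1g, Fcrls and Fcgrt. Of these, 6 had a probe set (a group of array probes summarised into 1 value) annotated to that gene alone, 1 probe set each, among 19938 genes with such a probe set. Fcgrt had none and was not analysed here, and no probe set with several gene names listed a member. The study measured gene expression on 2 arrays. For the DSS array, dextran sulfate sodium (DSS), a polymer that injures the colon lining, was given at 3% (wt/vol) in the drinking water over 5 days before macrophages were sorted from the colonic lamina propria. For the control array, the same population was sorted after 5 days of plain water. Both sorts kept cells positive for CD45, IAb, CD11b and the macrophage antigen encoded by Adgre1 and negative for CD103. The sources used here give no strain, age or number of mice behind an array.

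Fc receptors bind the constant part of antibodies and tie antibody recognition to the response of the cell. In the mouse, the Fc gamma receptors encoded by Fcgr1, Fcgr3 and Fcgr4 activate the cell through the common gamma chain, an adaptor encoded by Fcer1g whose cytoplasmic tail recruits the kinase Syk. Fcgr2b encodes the inhibitory receptor for the same ligands, which recruits the lipid phosphatase encoded by Inpp5d. In the gut, macrophages can meet IgG bound to bacteria, and the balance of activating and inhibitory receptors is known to set how strongly immune complexes trigger them.

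The promoters of 4 members are shown because their genes lay at the top, near 0 and at the bottom of the differences given further on. Each sequence is the 250 bases before the annotated start in RefSeq, build GRCm38.p6, written 5′ to 3′ on the strand of the gene. Capitals mark matches, on either strand, to the core of the interferon-stimulated response element (GAAA, any 2 bases, GAAA) or GAGGAA (a core of PU.1, the macrophage transcription factor).
Fcgr1 (chr3:96293970-96294219, minus strand): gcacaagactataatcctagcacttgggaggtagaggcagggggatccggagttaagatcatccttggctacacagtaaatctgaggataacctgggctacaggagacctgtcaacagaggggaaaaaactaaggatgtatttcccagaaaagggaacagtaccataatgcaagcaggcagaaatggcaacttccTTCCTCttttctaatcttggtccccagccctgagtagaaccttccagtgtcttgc
Fcgr4 (chr1:171018676-171018925, plus strand): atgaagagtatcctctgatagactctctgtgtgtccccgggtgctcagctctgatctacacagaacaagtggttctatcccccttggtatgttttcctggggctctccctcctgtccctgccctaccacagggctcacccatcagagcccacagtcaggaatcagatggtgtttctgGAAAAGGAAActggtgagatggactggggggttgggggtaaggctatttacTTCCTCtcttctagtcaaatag
Fcgr2b (chr1:170976072-170976321, minus strand): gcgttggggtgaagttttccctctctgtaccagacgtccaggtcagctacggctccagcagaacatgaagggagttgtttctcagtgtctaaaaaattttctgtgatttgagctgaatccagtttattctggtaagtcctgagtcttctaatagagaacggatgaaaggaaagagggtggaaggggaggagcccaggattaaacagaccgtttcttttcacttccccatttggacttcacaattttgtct
Fcrls (chr3:87263525-87263774, minus strand): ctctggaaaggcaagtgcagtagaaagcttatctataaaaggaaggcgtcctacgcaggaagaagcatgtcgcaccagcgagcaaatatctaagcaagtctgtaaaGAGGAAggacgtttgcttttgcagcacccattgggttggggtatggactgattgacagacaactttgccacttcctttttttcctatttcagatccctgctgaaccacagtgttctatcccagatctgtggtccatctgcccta

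The motifs were searched in 300 bases a promoter, the 250 shown and the 50 that follow, and all 7 members had an entry. The core of the interferon-stimulated response element was found in Fcgr4 alone among the members, at 73 to 64 bases before the start, and 3.44% of 32851 promoters of the same length held it. GAGGAA was found in 4 of the 7 members, Fcgr1, Fcgr3, Fcgr4 and Fcrls, against 28.3% of all promoters. The searched letters of different motifs did not overlap in these promoters. A match is a description of letters, not of binding.

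Fcgr1 and Fcgr4 read higher in DSS by less than 2-fold as deposited, and Fcgr3 and the common gamma chain by smaller amounts. Fcgr2b was nearly equal on both arrays and slightly negative under loess centring, and Fcrls read far lower. A gene was counted when its signal reached the array median (5.62 in DSS and 5.70 in control, log2) on 1 array or on both, the signal rule used below, which 11163 genes and all 6 measured members did. At a size of 2-fold, 0 of the 6 members were higher in DSS, 1 was lower and 5 lay between. Over all counted genes, 3.99% were higher by 2-fold or more and 3.03% were lower by as much. The members had a median log2 difference (DSS minus control) of 0.30, beside -0.03 over all counted genes. By any size, 5 of 6 members were higher in DSS (4 under loess centring, where Fcgr2b was at -0.041), beside 46.4% of counted genes and 62.4% of the 2494 counted genes whose mean signal was at or above that of the dimmest member. In that brighter group 4.41% were higher by 2-fold or more and 2.93% lower, and the median difference was 0.11. There was 1 array in each group, so no error, interval or p-value between conditions exists, and each difference compares these 2 arrays. In bulk samples fewer cells of a type and less RNA per cell cannot be told apart, which holds for every gene given here. Between different probe sets of the same gene the differences had a pooled SD of 0.28 over 798 genes. It covers whatever sets such probe sets apart on these arrays and not the spread between animals. Each member has 1 probe set, so this SD comes from other genes.

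**Figure D1:**
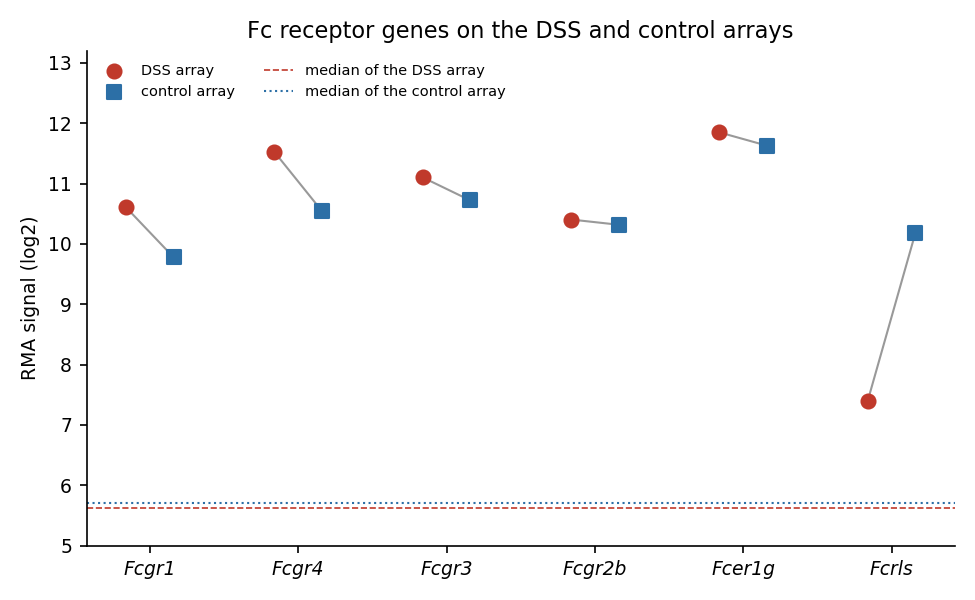
RMA signal (log2) of the 6 measured Fc receptor genes, with 1 circle for the DSS array and 1 square to its right for the control array, joined by a line for each gene; dashed and dotted lines are the array medians of 5.62 in DSS and 5.70 in control. The lines of Fcgr1 and Fcgr4 slope from higher DSS to lower control signals, that of Fcgr2b is nearly flat at 10.40 and 10.32, and Fcrls stands at 7.40 in DSS and 10.17 in control.

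Among the activating receptors, Fcgr4 and Fcgr1 had the larger differences. Fcgr4 (probe set 10351509) encodes an Fc gamma receptor of monocytes, macrophages and neutrophils in the mouse. Its log2 signal was 11.52 in DSS and 10.54 in control, a difference of 0.98 or 1.97-fold, just short of the 2-fold size. Of the counted genes, 95.8% had a lower difference than Fcgr4, and 95.2% of the brighter group did. Under centring of each array on its median the difference of Fcgr4 was 1.06, past 2-fold, and under loess centring it was 0.83.

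Fcgr1 (probe set 10500335) encodes the high-affinity IgG receptor, also known as CD64, which is widely used to identify macrophages in the mouse gut. Its log2 signal was 10.60 in DSS and 9.78 in control, a difference of 0.83 or 1.77-fold. Of the counted genes, 94.4% had a lower difference. At a size of 1.5-fold, Fcgr1 and Fcgr4 made 2 of 6 members higher in DSS, beside 9.85% of all counted genes, and Fcrls made 1 of 6 lower, beside 8.80%.

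Fcgr3 (probe set 10360040), the low-affinity activating receptor for immune complexes, differed less. Its log2 signal was 11.10 in DSS and 10.72 in control, a difference of 0.38 or 1.30-fold, with 82.8% of counted genes lower. The extracellular parts of the proteins encoded by Fcgr3 and Fcgr2b are nearly identical in the mouse. The probe letters were not used here, so whether either probe set also reads the other gene was not tested.

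Fcgr2b (probe set 10360028), the inhibitory receptor, read nearly the same on both arrays, at 10.40 in DSS and 10.32 in control. Its difference of 0.09 turned to -0.041 under loess centring, so no direction is given for it. Fcer1g (probe set 10360070), the common gamma chain on which the activating receptors depend for expression at the surface, had a log2 signal of 11.85 in DSS and 11.63 in control. Its difference of 0.22, or 1.16-fold, was below the SD of 0.28 between probe sets of a gene.

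The activating receptors and the inhibitory receptor thus differed by unequal amounts between these arrays. The ratio of Fcgr4 to Fcgr2b was higher in DSS by 0.89 on the log2 scale, or 1.85-fold, and that of Fcgr1 to Fcgr2b by 0.74, or 1.67-fold. The ratio of Fcgr3 to Fcgr2b was higher by 0.29, or 1.23-fold. Of the alternatives only loess centring could move such a change, since a constant shift of an array cancels, each member has 1 probe set and all signals lie above the floor. Under loess centring the 3 changes were 0.87, 0.74 and 0.28. Set against the common gamma chain, the changes were 0.76 for Fcgr4, 0.61 for Fcgr1, 0.16 for Fcgr3 and -0.13 for Fcgr2b. The last of these lies within the SD of 0.28 between probe sets of a gene, as does that of Fcgr3. That SD is for the difference of 1 gene, whereas a change of a ratio holds the noise of 2 genes. The change of 0.29 for Fcgr3 to Fcgr2b is therefore not set apart from such noise. The log2 scale shows changes of each gene between arrays and not the number of receptor molecules, and levels of different probe sets were not set against each other.

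**Figure D2:**
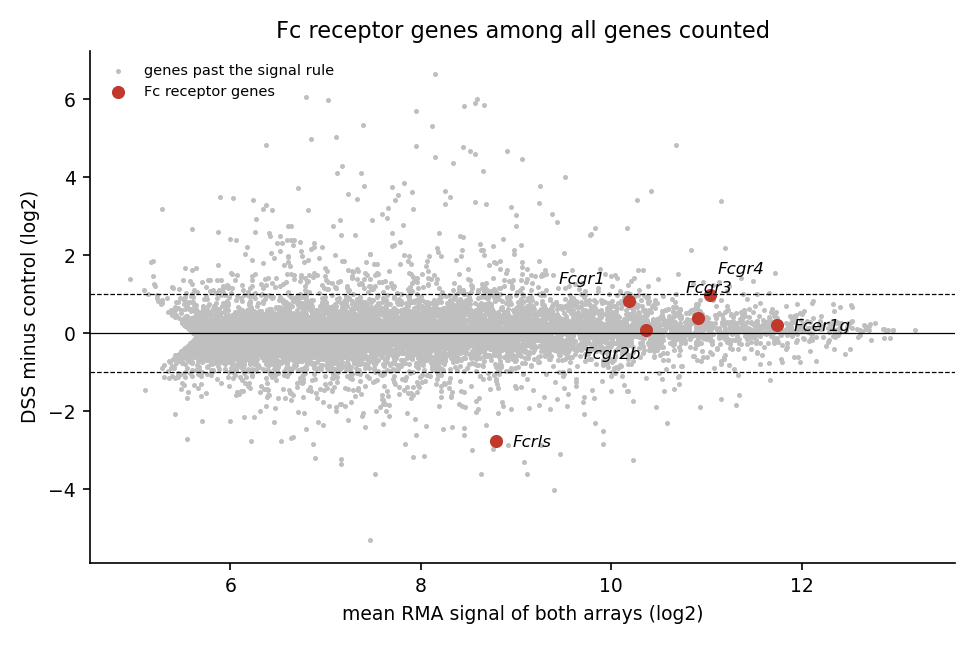
Difference between DSS and control (log2, vertical axis) against the mean RMA signal of both arrays (log2, horizontal axis) for the 11163 counted genes in grey and the 6 Fc receptor genes in red; dashed lines mark 2-fold. Fcgr4 at 0.98 lies just under the upper 2-fold line, and Fcrls at -2.77 lies well below the lower one.

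Fcrls went the other way. It encodes an Fc receptor-like protein of the mouse with a scavenger receptor domain and is known as a marker of microglia, the macrophages of the brain. Fcrls (probe set 10499189) had a log2 signal of 7.40 in DSS and 10.17 in control, a difference of -2.77 or 6.82-fold lower in DSS. It ranked as number 21 from the bottom among the 11163 counted genes, of which 1.06% were at least 3-fold lower. Both signals were above the medians of their arrays, by 1.79 in DSS and 4.47 in control, so the fold does not start from the dim end of either array.

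The gap between Fcrls and the classical genes was wider than any gap within those 5, whose differences ran between 0.09 and 0.98. Relative to the common gamma chain, the log2 difference of Fcrls was -2.99, or 7.94-fold lower in DSS. It was also lower relative to pan-macrophage genes, with log2 differences of -1.95 against Adgre1 (the gene of the antigen used in the sort), -2.11 against Csf1r and -2.16 against Cd68. Relative to the same 3 genes, Fcgr4 was higher by 1.80, 1.64 and 1.59 and Fcgr1 by 1.65, 1.49 and 1.44. These 3 genes themselves read lower in DSS, with differences of -0.82, -0.66 and -0.61, which make up part of each relative value. The own differences of Fcgr4 and Fcgr1 were 0.98 and 0.83. Other macrophage genes read lower in DSS by more than Fcrls did. Vsig4, Folr2, Lyve1, Cd163 and Timd4, genes known as markers of resident macrophages, had differences of -5.29, -3.62, -3.61, -3.31 and -3.17. The bases of comparison and these genes were chosen after the values were seen.

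**Figure D3:**
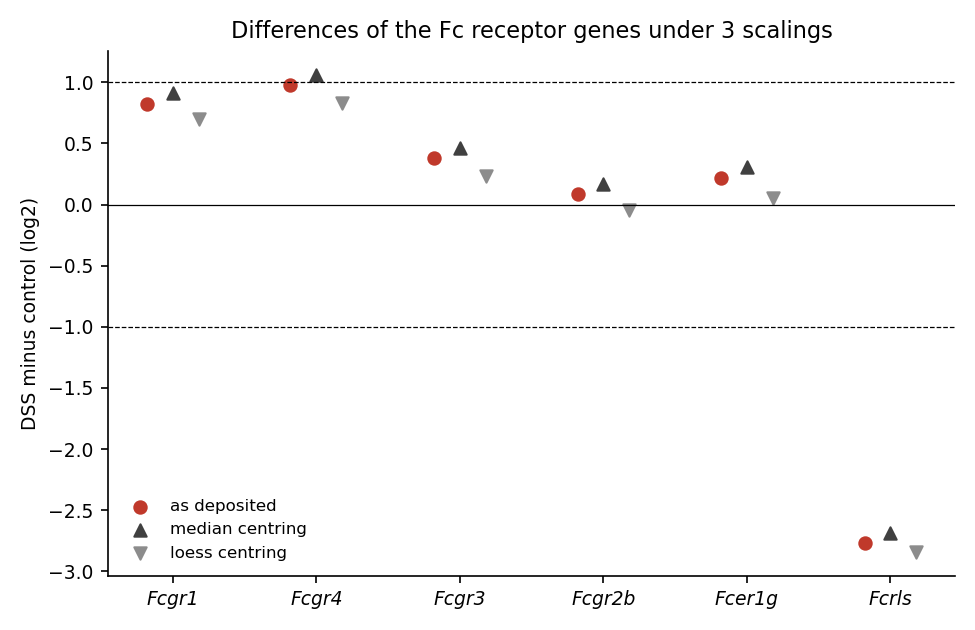
Difference between DSS and control (log2) of each Fc receptor gene with the values as deposited, after centring each array on its median, and after loess centring; dashed lines mark 2-fold. Fcgr4 passes the upper 2-fold line at 1.06 under median centring alone among the 3, Fcgr2b turns to -0.041 under loess centring, and Fcrls stays between -2.84 and -2.69.

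Genes that mark other cells also differed between the arrays. Of 14 neutrophil markers that met the signal rule, 13 reached 2-fold with the higher signal in DSS, beside 3.99% of all counted genes. Most of the 14 met the rule through the DSS array alone, with a control signal below the array median. The rule itself thus favoured a higher DSS signal for them. With both arrays required at their median, the list had a median difference of 3.39. All 15 measured had a summed linear signal of 34702 in DSS and 2097 in control. The neutrophil calcium-binding protein genes S100a8 and S100a9 read 13.10 and 12.85 in DSS and 8.27 and 9.45 in control, and Retnlg, a secreted myeloid protein, read 11.98 in DSS and 8.55 in control. Neutrophils of the mouse also carry the receptors encoded by Fcgr3 and Fcgr4. Of 10 monocyte markers that met the signal rule, some through the DSS array alone, 9 were at least 2-fold higher in DSS. Their summed linear signal was 20296 in DSS and 1868 in control over all 10. Ccr2, the chemokine receptor of inflammatory monocytes, read 11.90 in DSS and 9.77 in control, Plac8 12.23 and 8.60, and Ifitm6 11.23 and 6.57. The part of these cells in the differences of the Fc receptor genes was not tested.

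Macrophage markers stood lower on the DSS array. Of 14 past the rule, 14 had a lower DSS signal, beside 5920 of the 11163 counted genes, and 7 were at least 2-fold lower, beside 3.03%. Their median difference was -1.02, with a summed linear signal of 14040 in DSS and 29554 in control. The endosomal glycoprotein gene Cd68 read 11.62 in DSS and 12.23 in control, Mrc1, the mannose receptor, 11.07 and 12.26, and C1qc, a chain of complement C1q, 11.17 and 11.96. Within the list the differences ran from -5.29 for Vsig4, which read 4.82 in DSS and 10.11 in control, to -0.42 for Mertk, a receptor for apoptotic cells. Cd163, a scavenger receptor, read 7.43 in DSS and 10.74 in control, Folr2 5.71 and 9.33 and Timd4 6.33 and 9.50. The DSS signal of Vsig4 was below the array median. Fcgr1, itself used as a macrophage marker, thus read higher while these genes read lower. The sort antigens were present on both arrays, with log2 signals of 11.94 in DSS and 11.54 in control for Ptprc (CD45), 12.13 and 11.99 for H2-Ab1 (IAb), 10.19 and 9.59 for Itgam (CD11b) and 10.82 and 11.65 for Adgre1. Itgae, the gene of the excluded CD103, was below both array medians at 4.91 in DSS and 4.89 in control.

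Many markers of other cell types that carry Fc receptors were dim. Of all 19938 genes with a probe set of 1 gene, 11163 met the signal rule and the rest lay below both medians. B cells carry Fcgr2b as their Fc gamma receptor, and 4 of 8 measured B and plasma cell markers were below the medians of both arrays. Among them were the defining markers Ms4a1, Pax5 and Cd79a. The other 4 met the signal rule, which is close to the share over all genes. Jchain, the joining chain of secreted immunoglobulin, was bright on both at 10.52 in DSS and 10.79 in control, Cd79b read 6.82 in DSS and 6.71 in control, and Mzb1 read 6.52 and 6.03. The 8 measured B and plasma cell genes had a summed linear signal of 1836 in DSS and 2106 in control. NK cells carry Fcgr3, and 8 of 10 NK and T cell markers were below both medians, among them Klrb1c, Eomes, Nkg7 and Tbx21, the last at 5.51 in DSS and 5.63 in control. Klrk1, the NKG2D receptor, read 7.35 in DSS and 5.84 in control and Gzma, a granzyme, 6.37 and 4.69. Mast cells carry Fcer1g with the IgE receptor, and 8 of 10 mast cell markers were below both medians, with Kit at 6.71 in DSS and 5.75 in control and Gata2 at 5.87 in DSS with a difference of -0.13, and Tpsb2, a tryptase, at 5.56 in DSS and 5.31 in control. Detection calls were not at hand, and signals below the median cannot be told from background.

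**Figure D4:**
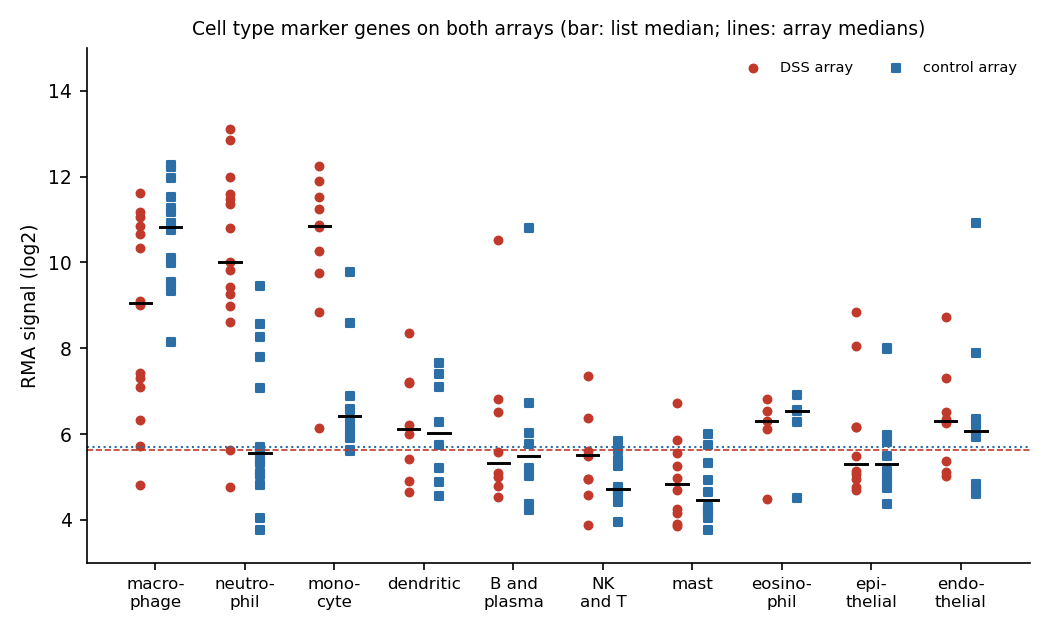
RMA signal (log2) of marker genes of 10 cell types, with circles for the DSS array and squares to their right for the control array; short bars are list medians and horizontal lines the array medians. Neutrophil and monocyte markers have medians of 10.01 and 10.85 in DSS against 5.55 and 6.42 in control, macrophage markers 9.05 in DSS against 10.83 in control, and the B, NK and mast cell lists lie mostly near or below the array medians.

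Epithelial, endothelial, dendritic and eosinophil lists had median differences of 0.35, 0.13, 0.45 and -0.12 among 5, 5, 6 and 4 genes past the rule, and the dendritic median was 0.099 with no signal rule. These cells bear on the list because colon epithelium carries the polymeric immunoglobulin receptor encoded by Pigr. Krt8 and Car1, a keratin and a carbonic anhydrase of colon epithelium, had differences of 0.07 and 0.83, with Krt8 at 8.05 in DSS and 7.97 in control, and Cdh1 read 6.16 in DSS and 5.81 in control. Pecam1, an endothelial adhesion molecule also found on myeloid cells, read 8.73 in DSS and 7.88 in control, and Vwf, the clotting factor of endothelium, 6.27 and 6.36. Lyve1, also a marker of resident macrophages, read 7.31 in DSS and 10.92 in control. Ccr7, Batf3 and Siglech of the dendritic list read 8.34, 7.19 and 6.22 in DSS and 7.40, 7.09 and 7.66 in control. Siglecf, Ccr3 and Alox15 of the eosinophil list read 6.30, 6.81 and 6.54 in DSS and 6.54, 6.90 and 6.57 in control.

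Of 12 other Fc receptors and Fc receptor-like genes measured, 5 passed the signal rule, beside 11163 of 19938 genes in all. Of these 5, 0 were 2-fold apart, beside 3.99% of all counted genes higher and 3.03% lower by that size. With 5 genes, a count of 0 is not set apart from those shares. Their median difference was 0.07. The chains of the IgE receptor other than the gamma chain, Fcer1a and Ms4a2, were below both array medians at 4.14 and 4.09 in DSS and 3.80 and 4.14 in control. Trim21, the cytosolic antibody receptor, read 8.18 in DSS and 7.84 in control. Fcrlb and Fcrla, intracellular relatives of B cells, read 6.74 and 5.70 in DSS and 6.48 and 5.76 in control, and Fcrl1, also of B cells, read 5.89 in DSS with a difference of -0.11. Pigr read 5.76 in DSS and 5.70 in control. B2m, the light chain of the neonatal Fc receptor whose heavy chain Fcgrt was not measured, read 12.46 in DSS and 12.33 in control, and its difference of 0.13 turned to -0.059 under loess centring.

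Of 5 measured receptors outside the Fc family that use the same gamma chain, 3 met the signal rule. Of these, 2 were higher in DSS by more than 2-fold, beside 3.99% of all counted genes. Clec4e, the C-type lectin Mincle, read 12.29 in DSS and 10.10 in control, or 4.58-fold higher. Clec4d, its partner lectin, read 12.07 in DSS and 10.66 in control, or 2.66-fold higher. Clec4n, or Dectin-2, read 10.84 in DSS and 10.71 in control. Among other adaptors, Tyrobp (DAP12) read 12.52 in DSS and 12.26 in control, close to the difference of Fcer1g, and Hcst (DAP10) read 8.96 in DSS and 8.23 in control.

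Genes of activating Fc receptor signalling had a median difference of 0.24 over 24 members past the rule, beside 0.11 in the brighter group of counted genes. Of the 24, 2 were higher by 2-fold or more, 0 lower by as much and 22 between. Over all counted genes, 3.99% were higher and 3.03% lower by that size. Fgr, a Src family kinase of myeloid cells, read 9.41 in DSS and 7.43 in control, or 3.94-fold higher. Malt1, the paracaspase that links such receptors to NF-kB, read 11.18 in DSS and 10.17 in control, or 2.01-fold higher. Syk, the kinase that binds the gamma chain, read 9.51 in DSS and 8.85 in control, below 2-fold, and is named here outside the rule, after its value was seen. Plcg1 and Tec lay furthest the other way, at 5.27 and 9.27 in DSS and 5.89 and 9.88 in control, and the DSS signal of Plcg1 was below the array median. Lyn had no probe set of its own.

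Restraining genes of the pathway were listed as signalling proteins and receptors. The 10 inhibitory signalling genes past the rule had a median difference of 0.08, with 0 at 2-fold in either direction. Over all counted genes, 3.99% were higher and 3.03% lower by 2-fold or more. Cblb, a ubiquitin ligase, and Ptpn6, the phosphatase SHP-1, read 8.72 and 10.30 in DSS and 8.01 and 9.76 in control. Inppl1, the phosphatase SHIP2, and the adaptor gene Dok2 read 6.47 and 6.84 in DSS and 7.29 and 7.40 in control. Inpp5d, the phosphatase SHIP1 recruited by the receptor that Fcgr2b encodes, read 9.62 in DSS and 10.01 in control and is likewise named after its value was seen. The 8 other inhibitory receptors had a median difference of 0.55, with 2 higher by 2-fold or more and 0 lower by as much, beside the same shares. Cd300lf read 9.72 in DSS and 6.10 in control, or 12.3-fold higher. Pirb, the inhibitory counterpart of gamma chain receptors in its family, read 10.85 in DSS and 9.74 in control, or 2.17-fold higher. Lilrb4a and Sirpa read 11.71 and 11.44 in DSS and 11.46 and 11.54 in control.

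**Figure D5:**
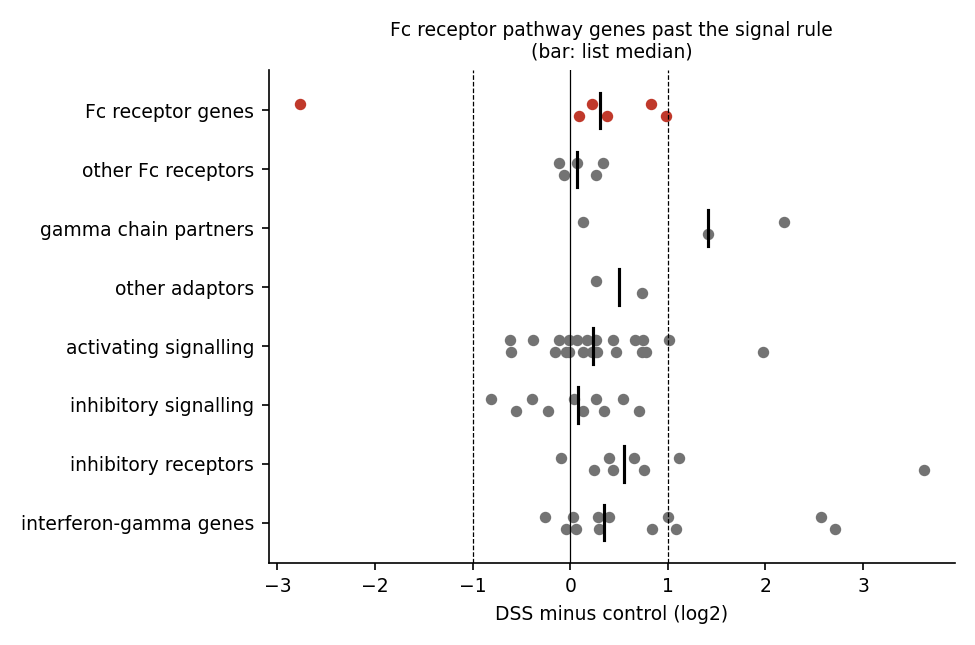
Differences between DSS and control (log2) of genes past the signal rule in 8 lists, with a point for each gene, a bar at each list's median and dashed lines at 2-fold. The Fc receptor genes are in red with Fcrls apart at -2.77; the furthest points to the right are Cd300lf among inhibitory receptors at 3.62 and Cxcl9 among interferon-gamma genes at 2.71.

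Genes of the interferon-gamma pathway, a known inducer of Fcgr1, had a median difference of 0.35 over 12 members past the rule. Of these, 3 were higher by 2-fold or more and 0 lower by as much, beside 3.99% and 3.03% of all counted genes. The interferon-inducible chemokine gene Cxcl9 read 11.52 in DSS and 8.81 in control, and Gbp5, a guanylate-binding protein, read 9.48 in DSS and 6.91 in control. Jak2, a kinase of the receptor, read 10.63 in DSS and 9.55 in control, or 2.12-fold higher. Socs1, a feedback inhibitor, and the transcription factor gene Irf8 read 6.71 and 8.47 in DSS and 6.97 and 8.51 in control. Spi1, the gene of PU.1, read 9.64 in DSS and 9.24 in control and is named after its value was seen. Whether interferon-gamma bears on the values of Fcgr1 or Fcgr4 was not tested.

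Neighbouring genes were listed to show the members in their place on the chromosome. In gene order on chromosome 1 of the RefSeq annotation, Fcrla, Fcgr2b, Fcgr4 and Fcgr3 follow each other among the measured genes, with differences of -0.06, 0.09, 0.98 and 0.38. Fcer1g comes after a further 6 measured genes, whose differences ran between -0.27 for Cfap126, next to Fcgr3, and 0.31 for Nr1i3. Both of these genes were below the medians of both arrays, and the differences of those past the signal rule ran between -0.10 and 0.07. The measured genes on either side of Fcer1g, Apoa2 and Adamts4, had differences of 0.01 and -0.13. On chromosome 3, Fcrls lies between Kirrel and Cd5l, both below the array medians, with differences of -0.22 and -0.12. Fcgr1 lies between H2bc18 and BC107364 on the same chromosome, also below the medians, with differences of -0.01 and -0.47. On chromosome 7, Fcgrt lies between Rcn3, which read 5.74 in DSS and 7.41 in control, and Flt3l, which read 6.39 in DSS and 6.28 in control.

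Over the 2 arrays, the genes with the closest pair of signals were found for each member by straight-line distance on the log2 scale. The search left out predicted genes, genes with clone names, and immunoglobulin and T cell receptor segments. For Fcrls these were Gas6, a ligand of receptors for apoptotic cells, P3h2 and Bank1, with signals of 7.27, 7.48 and 7.51 in DSS and 10.25, 10.35 and 9.87 in control. For Fcgr4 they were Alox5ap, a protein of leukotriene synthesis, S100a4 and Pdcd10, with signals of 11.55, 11.49 and 11.36 in DSS and 10.51, 10.64 and 10.51 in control. For Fcgr1 they were Ist1, Cript and Trim30d, with differences of 0.84, 0.77 and 0.92. For Fcgr3 they were Rap1a, Eif2s2 and Ms4a4a, with differences of 0.36, 0.35 and 0.34. For Fcgr2b they were Ppp1r7, Rnf19b and Ccni, with differences of 0.10, 0.12 and 0.09, and for Fcer1g Snap23, Rab8b and Dazap2, with differences of 0.18, 0.22 and 0.21. With 2 points a gene, such closeness is a description of these arrays alone.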

How the data were processed

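The authors deposited log2 signals of 35556 probe sets on 2 arrays. Per the submitters' processing notes they come from RMA, a method of background correction, normalisation between arrays and summary of probes whose version and settings the notes leave out. A genome build is not given in the sources used here. Values were used as deposited. RMA compresses differences of dim probe sets, and a batch cannot be told apart from treatment with 1 array in each group. The number of arrays limits the precision.

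Genes were named from the platform annotation (21789 probe sets with 1 symbol, 1621 with several, 12146 unlisted), and 19856 of 19938 genes matched the RefSeq table of GRCm38.p6 by Entrez identifier. A gene took its probe set of highest mean signal. Array medians rest on 28939 probe sets, which leaves out identifiers below the lowest listed one. Differences are DSS minus control, counted at 2-fold, with no test.

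The 7 members and the 19 other gene lists were chosen with earlier results of these data known. Named genes were all members; in pathway lists those past 2-fold and the 2 furthest in each direction; all sort antigens; the 3 brightest of each marker list; the 3 closest in signal to each member; and the nearest measured neighbours. Named outside this rule, after their values were seen, were Syk, Inpp5d, Spi1, Csf1r, Mertk, Vsig4, Folr2, Cd163, Timd4, Ms4a1, Pax5, Cd79a, Klrb1c, Eomes, Nkg7, Fcer1a, Ms4a2, Pigr and Nr1i3. A planned comparison of the member proteins was not made, since no protein sequences were at hand, and 1 planned promoter motif is not reported here.

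Alternatives covered median and loess centring (span 0.4), the mean over probe sets, both arrays or no array required at the median, a floor at the 25th percentile, and sizes of 1.5-fold and 3-fold. The 2-fold calls, as deposited and under both centrings, were tested on simulated data with planted shifts larger than the differences of most members. Ratios, closest genes, neighbours and the motifs given were not tested in this way. Calculations used Python 3.11.15, numpy 2.4.6, pandas 2.3.3, statsmodels 0.14.6 and matplotlib 3.10.9.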

Additional observations from a re-analysis of the deposited data

How the results depend on the processing

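With 1 array in each group no replicate could be left out, and no paired analysis was possible because there is 1 sample per group and no test. The number of members lower in DSS by the size in use was 1, Fcrls, under all 8 alternatives, several of which could not change it, as given below. The number at least 2-fold higher was 0 as deposited, 1 under median centring, which brought Fcgr4 past the size, 2 at a size of 1.5-fold, and 0 under the other 6. The difference of Fcgr2b turned to -0.041 under loess centring. No other difference of a member changed sign under median or loess centring, in its own value or relative to Fcer1g or Fcgr2b, and none moved by 0.28, the SD between probe sets of a gene. Differences relative to another member could move under loess centring only. The probe set, floor and signal rule alternatives could not move any member. Each has 1 probe set, and all lie above the floor and above both array medians. A size of 3-fold could not raise the count of members higher in DSS. These alternatives say nothing of stability in those counts. Among the genes at or above the dimmest member's signal, an alternative chosen after seeing the data, 46.7% had a lower difference than Fcgr2b, against 61.5% of all counted genes. Of the list medians, that of B2m alone turned to -0.059 under loess centring, and that of B and plasma cell markers, -0.04 as deposited, turned to 0.040 under median centring, 0.054 under loess centring and 0.10 when both arrays had to reach their median. The gamma chain partners had a median of 1.41, and of 0.20 with no signal rule, where 2 dim genes joined; with no signal rule the NK and T cell median was 0.33 against 1.60, the dendritic 0.099 against 0.45 and the neutrophil 4.11 against 4.47, and the neutrophil median was 3.39 when both arrays had to reach their median. Centring each array on its median raises all differences by 0.08. The array signals give no detection limit, which most affects dim genes and none of the 6 members, all above both medians.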
